A study of Mus musculus with 12 samples.

Results

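The response of the WT mouse spleen to lipopolysaccharide (LPS) was described across 22180 genes on 6 of 12 arrays, comparing spleens of 3 LPS challenged WT mice with spleens of 3 naive WT mice. Genes were the members of the comparison. Of 41345 probe sets in the table, 23521 carried exactly 1 gene symbol, and where a symbol had several probe sets the one with the highest mean over the 12 arrays stood for the gene. The LPS challenged WT group held female C57BL/6 mice aged 10 weeks that were injected i.p. with LPS at 10 mg/kg and killed at 6 h. The study's methods name this dose a lethal one and the LPS as that of E. coli. The naive WT group held untreated female C57BL/6 mice of the same age, and no injection of vehicle was described for them. The other 6 arrays came from ficolin KO mice, which lack the ficolin-A and ficolin-B genes. These were 3 LPS challenged mice (10 mg/kg, killed at 6 h) and 3 untreated mice, all aged 10 weeks. Their arrays were used for the choice of probe sets, the shared estimate of the spread, a check of the labels and the comparison of the responses of both genotypes. WT and KO mice descended from crosses of heterozygous mice, each genotype then being bred as homozygous lines.

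LPS is the outer membrane glycolipid of Gram-negative bacteria. It is handed by CD14 to the TLR4 receptor complex on macrophages, dendritic cells and B cells, and signals through MyD88 to NF-kB and MAP kinases and through TRIF to interferon-beta, whose receptor then switches on interferon-stimulated genes. The spleen meets blood-borne LPS in its red pulp and marginal zone, where macrophages also clear aged red cells and recycle their iron, while its white pulp holds the B cell follicles and T cell zones.

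RNA of the spleen was hybridised to Affymetrix Mouse Gene 2.0 ST arrays, and every value below is a log2 intensity normalised by the robust multi-array average (RMA), in which a step of 1 is a 2-fold difference. Array medians lay between 4.17 and 4.27, and values between 1.38 and 13.86. Arrays of the same WT group correlated with r of 0.987 to 0.992 over genes (6 pairs), and an LPS array with a naive array with r of 0.942 to 0.953 (9 pairs). Fcna, the gene deleted in the KO mice that the spleen expresses, read 7.92 to 9.38 on WT arrays and 3.98 to 4.85 on ficolin KO arrays, as the labels require. Tlx1, a homeobox gene of spleen stroma, and Cd79a, part of the B cell receptor, were present in every WT array, whereas the liver and islet genes Alb and Ins2 stayed at or below 3.81, under the array medians. The mean of 20 exocrine pancreas genes, in contrast, lay between 7.72 and 10.3 on the WT arrays, far above the medians, and the source of that RNA was not tested. As these are bulk samples, fewer cells of a type and less RNA per cell cannot be told apart. With 3 arrays against 3, an exact permutation test of 1 gene cannot go below p = 0.1, so genes were tested with limma across all genes, and the number of arrays limits the precision.

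After LPS challenge 898 genes were raised and 1096 lowered in WT spleen at a fold-change over 2 and an adjusted p under 0.05 (limma), that is 4.05% and 4.94% of the genes tested. Differentially expressed genes (DEGs) below are called raised or lowered by these criteria. The 3 LPS arrays all lay above the 3 naive arrays for 4292 genes (19.4%) and all below for 4729 genes (21.3%), among them 896 of the raised and 1094 of the lowered DEGs. The median log2 fold-change of all genes was 0.01, that of the raised DEGs 1.5 and that of the lowered DEGs -1.35. Large changes were mostly rises: 230 genes rose by more than 2 on the log2 scale and 141 fell by more than 2, and past 4 the counts were 22 raised and 5 lowered genes. In 63 raised genes (7.02%) every naive array lay under the lowest array median, and in 128 lowered genes (11.7%) every LPS array did. Such low intensities carry little signal over background, so the fold-changes given for these genes, Mmp13, Acod1, Il6 and Mir101c among them, are fitted estimates whose size and rank are uncertain.

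Mmp13, a collagenase, had the largest fitted fold-change. It read 10.96, 10.56 and 10.52 on the LPS challenged arrays and 3.67, 3.32 and 3.73 on the naive arrays, a fitted fold-change of 138 (log2 fold-change 7.11 ± 0.15 SE, adjusted p = 2.72e-13, limma). All naive values lay under the array medians and all LPS values were far above them. Acod1, the mitochondrial enzyme that makes itaconate in activated macrophages, read 10.07, 9.88 and 9.71 in LPS challenged and 3.88, 2.87 and 3.64 in naive spleens (fold-change 85.8). Ccl3, a chemokine for monocytes and T cells, read 11.78, 11.53 and 11.70 against 5.58, 5.28 and 5.82 (fold-change 69.1). Saa3, an acute phase protein made by macrophages, read 10.02, 10.04 and 10.35 against 4.24, 4.10 and 4.57 (fold-change 57.0). In each of these genes the groups were separated by more than 5 on the log2 scale, several times the spread within either group.

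**Figure D1:**
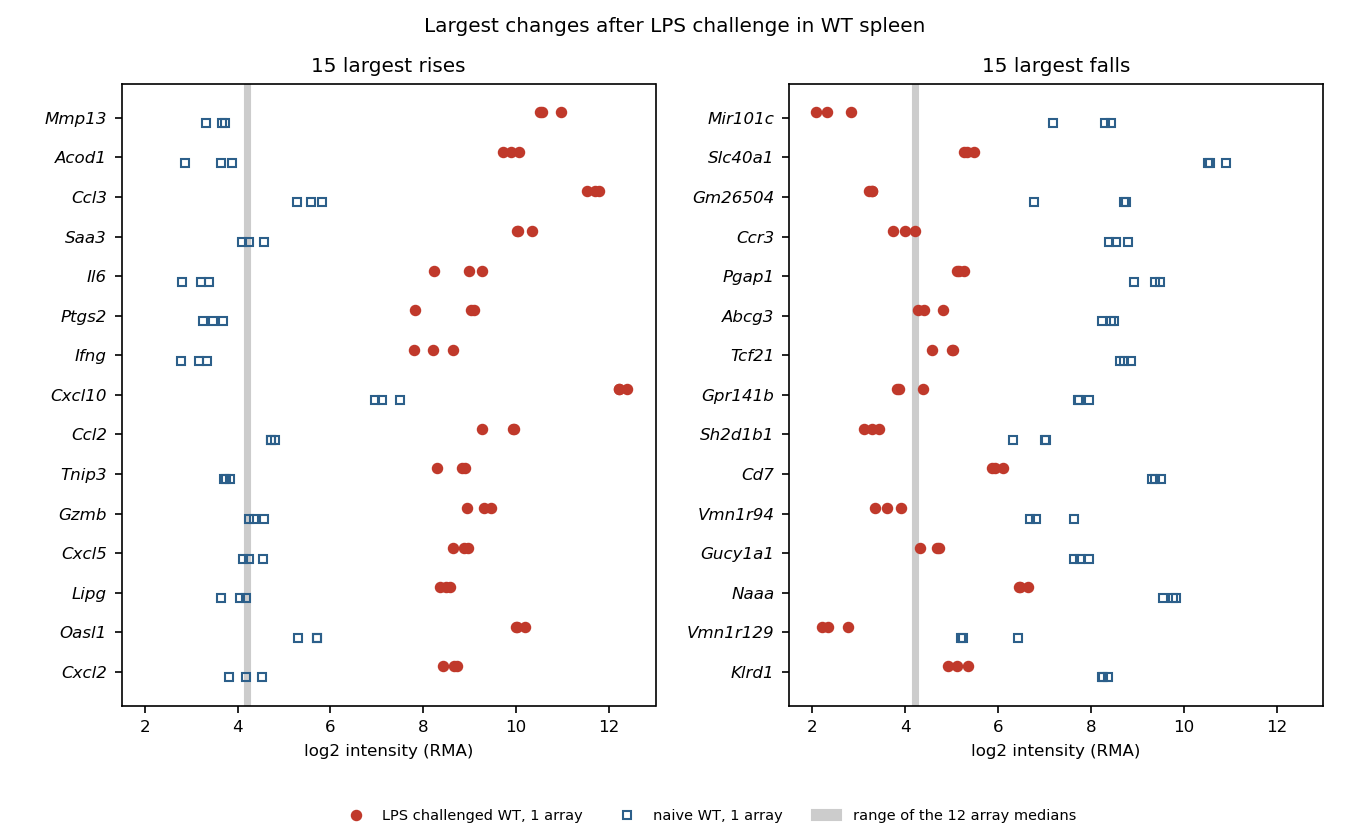
Log2 RMA intensity (x axis) of the 15 genes with the largest rises (left) and the 15 with the largest falls (right), one row per gene. Filled circles are the 3 LPS challenged WT arrays, open squares the 3 naive WT arrays, and the grey band spans the 12 array medians (4.17 to 4.27). In no row do the groups overlap, which was a condition of being shown.

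Il6, the fever and acute phase cytokine, read 8.98, 8.22 and 9.26 in LPS challenged spleens and 3.38, 3.22 and 2.80 in naive spleens (log2 fold-change 5.69 ± 0.27 SE). Ptgs2, the inducible cyclooxygenase, read 9.10, 7.81 and 9.02 against 3.25, 3.48 and 3.69 (5.17 ± 0.28), and Ifng, the T and NK cell interferon, read 8.20, 7.80 and 8.63 against 3.17, 2.78 and 3.35 (5.11 ± 0.25). In all of these LPS replicate 2 was the lowest of its group, yet stood far above each naive array. Cxcl10, the interferon-induced chemokine for T cells, read 12.39, 12.21 and 12.22 in LPS challenged spleens and was already at 7.11, 6.95 and 7.49 in naive spleens (5.09 ± 0.14). The 15 largest rises were completed by Ccl2 (4.97), the monocyte chemokine, Tnip3 (4.91), a partner of the NF-kB inhibitor A20, the cytotoxic protease gene Gzmb (4.85), the neutrophil chemokine genes Cxcl5 (4.52) and Cxcl2 (4.43), endothelial lipase Lipg (4.51) and the interferon-stimulated gene Oasl1 (4.49). Genes under the array medians in naive and highest in LPS challenged spleens included, beside Mmp13, Acod1, Il6, Tnip3, Ptgs2 and Ifng, the antiviral GTPase gene Mx1 (3.51), the aggrecanase gene Adamts4 (3.58) and Fgf23 (3.59), known as a phosphate hormone of bone. Fgf23 read 7.19, 6.50 and 7.42 in LPS challenged and 3.56, 3.22 and 3.55 in naive spleens.

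The promoters of the strongest rises with letters of a kappaB or interferon response element are shown because NF-kB and interferon factors are the known routes of TLR4 signalling. The windows are RefSeq sequences of build GRCm38.p6 and lie mostly before the start site. They come from chr9:7272264-7272563 (plus strand) for Mmp13, chr11:83649329-83649628 (minus) for Ccl3, chr7:46715627-46715926 (minus) for Saa3 and chr5:30012864-30013163 (plus) for Il6. Capitals mark TTCNNTTTC (ISRE) in the first 3 and GGGANNTTC (kappaB) in Il6, searched on both strands.
Mmp13: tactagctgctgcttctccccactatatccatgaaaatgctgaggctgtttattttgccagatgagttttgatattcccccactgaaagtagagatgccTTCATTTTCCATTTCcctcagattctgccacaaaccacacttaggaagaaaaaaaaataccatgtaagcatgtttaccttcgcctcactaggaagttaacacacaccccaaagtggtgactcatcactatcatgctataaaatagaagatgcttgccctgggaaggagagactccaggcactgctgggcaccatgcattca
Ccl3: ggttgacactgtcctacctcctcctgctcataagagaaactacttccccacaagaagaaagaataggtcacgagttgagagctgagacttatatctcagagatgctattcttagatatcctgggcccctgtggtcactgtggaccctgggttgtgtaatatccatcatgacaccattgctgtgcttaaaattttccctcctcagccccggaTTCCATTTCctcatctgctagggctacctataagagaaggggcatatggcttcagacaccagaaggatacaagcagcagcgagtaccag
Saa3: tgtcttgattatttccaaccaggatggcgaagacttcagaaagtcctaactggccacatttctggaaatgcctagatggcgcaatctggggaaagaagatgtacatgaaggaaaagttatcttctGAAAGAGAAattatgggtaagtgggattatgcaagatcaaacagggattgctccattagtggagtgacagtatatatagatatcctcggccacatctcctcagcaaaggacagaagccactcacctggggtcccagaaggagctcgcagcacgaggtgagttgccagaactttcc
Il6: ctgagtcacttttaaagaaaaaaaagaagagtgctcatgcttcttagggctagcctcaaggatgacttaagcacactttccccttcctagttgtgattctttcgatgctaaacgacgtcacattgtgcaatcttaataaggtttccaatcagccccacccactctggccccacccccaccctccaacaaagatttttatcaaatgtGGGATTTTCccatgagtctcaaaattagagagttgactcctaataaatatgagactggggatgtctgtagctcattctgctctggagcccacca
In Mmp13 the capitals cover 2 overlapping ISRE matches starting at -151 and -145 from the start site. The match of Ccl3 began at -39 and overlapped 1 match of GAGGAA, that of Saa3 began at -125 on the opposite strand, and the kappaB match of Il6 began at -44. Of the 15 largest rises, 12 had a promoter in the table, 3 of them with a kappaB match and 4 with an ISRE match.

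Across all genes, 16918 of 22180 had a promoter sequence. The kappaB letters were found in 3.76% of these, in 6.22% of 691 raised and in 2.42% of 828 lowered genes. ISRE letters were found in 8.10% of all, 13.6% of raised and 7.61% of lowered genes, and AP-1 letters (TGANTCA) in 7.37%, 9.41% and 5.31%. Among the 53 genes with a promoter that rose by more than 3 on the log2 scale, the shares were 20.8% (kappaB), 32.1% (ISRE) and 22.6% (AP-1). Among the 114 with a promoter that fell by more than 2, they were 3.51%, 13.2% and 11.4%. The ISRE and AP-1 letters were thus not scarcer in large falls than over all genes. In the lists of interferon-stimulated genes and GTPases, 16 of 26 promoters (61.5%) held the ISRE letters. A match is a description of the letters and not a bound site.

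Among genes for the sensing of LPS, 5 were raised and 2 lowered of 20 measured, with a median log2 fold-change of 0.01, the same as over all genes. The co-receptor Cd14 read 9.87, 9.86 and 9.93 in LPS challenged and 7.14, 7.43 and 7.57 in naive spleens (2.51 ± 0.17), and Aoah, the lipase that detoxifies LPS, rose by 2.48 ± 0.29. The receptor itself fell, as Tlr4 read 5.19, 5.16 and 5.21 in LPS challenged spleens and 6.49, 6.86 and 6.66 in naive spleens (-1.48 ± 0.13, adjusted p = 4.65e-07). Cd180, a TLR4 homologue of B cells, read 6.82, 7.67 and 7.25 against 9.62, 10.02 and 9.82 (-2.57 ± 0.21). The adaptor Myd88 rose by 1.49, and Map3k8 (1.05) and the inhibitory kinase Irak3 (1.01) lay just past the criterion, so that the list had 3 raised genes in place of 5 without LPS replicate 1. Ticam1, the gene of the adaptor TRIF, was not called, and its groups overlapped.

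Downstream, NF-kB subunits and inhibitors had 13 raised and 0 lowered of 18 measured (median 1.21). The largest rises lay outside the subunits Nfkb2, Rel, Rela and Relb, which were few in the list. After Tnip3 came the nuclear IkB protein Nfkbiz (2.53), Tnfaip3, the gene of A20 (2.46), Bcl3 (1.98), the RNase gene Zc3h12a (1.71) and Tnip1 (1.65). Relb (0.985), Nfkbid (0.923) and Ikbke (0.825) lost their calls without LPS replicate 1. Immediate early and bZIP transcription factors had 17 raised and 0 lowered of 27 (median 1.40; 1 lowered without LPS replicate 2), led by Atf3 (3.2), Ier3 (2.72), Myc (2.57), Batf (2.33), Jun (2.30) and Cebpb (2.09). Signalling brakes had 10 raised and 1 lowered of 19 (median 1.07). The cytokine signalling suppressors Socs3 (3.59 ± 0.17) and Socs1 (3.26 ± 0.14) led these, followed by the MAP kinase phosphatase gene Dusp1 (2.25), whereas the ERK phosphatase gene Dusp6 fell (-1.15).

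Cytokine and chemokine genes differed widely in the size of their rise. In the interleukin-1 family 6 of 13 were raised and 0 lowered (median 0.99), with the receptor antagonist Il1rn (4.09) and Il1a (3.88) ahead of the decoy receptor Il1r2 (2.32) and Il1b (2.15). Il1b read 10.88, 10.23 and 10.83 in LPS challenged spleens but was already at 9.07, 8.47 and 7.95 in naive spleens. Other cytokines had 11 raised and 0 lowered of 29 (median 0.65), where Il6 and Ifng were followed by Il27 (3.33), Csf3 (2.74), Tnf (2.28) and Il17a (2.01). Tnf read 10.21, 10.31 and 10.19 in LPS challenged and 7.89, 7.57 and 8.40 in naive spleens, so its groups were apart while its fold-change of 4.87 was a fraction of that of Il6 (51.5).

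Chemokines had 16 raised and 1 lowered of 30 (median 1.79). The lowered one, Ccl6, read 4.39, 5.43 and 5.32 in LPS challenged and 7.80, 7.04 and 7.17 in naive spleens (-2.29 ± 0.26). Chemokine receptors went mostly the other way, with 3 raised and 6 lowered of 20 (median -0.47). Raised were the atypical receptor Ccrl2 (3.62), the lymph node homing receptor Ccr7 (1.82) and Ccr8 (1.01), which lost its call without LPS replicate 1 or naive replicate 2. Ccr3, the eotaxin receptor known from eosinophils, fell most, reading 3.74, 3.99 and 4.22 in LPS challenged and 8.39, 8.80 and 8.54 in naive spleens (-4.59 ± 0.17, adjusted p = 7.38e-11). The fractalkine receptor Cx3cr1 fell by 2.63, the CXCL12 receptor Cxcr4 by 1.89 and the monocyte receptor Ccr2 by 1.33. The eosinophil granule genes Epx and Prg2 had log2 fold-changes of -0.95 and -0.72 and were not called.

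The interferon arm changed nearly as one. Of 28 interferon-stimulated genes 26 were raised and 0 lowered (median 2.67), and of 13 interferon-inducible GTPases 11 were raised and 0 lowered (median 2.58). Examples were Ifit1, which read 9.60, 9.10 and 9.56 in LPS challenged and 5.53, 5.20 and 5.18 in naive spleens (4.12 ± 0.16), and the GTPase gene Gbp5 with 10.18, 10.05 and 10.17 against 6.48, 6.56 and 6.53 (3.61 ± 0.13). In the Schlafen family, picked by symbol after its values were seen, 5 of 9 were raised and 0 lowered, up to Slfn4 at 3.67. MHC class I presentation had 4 raised and 0 lowered of 13 (median 0.71), the transactivator Nlrc5 (1.90) and the peptide transporter Tap1 (1.69) in front, whereas MHC class II presentation had 0 raised and 8 lowered of 9 (median -1.29). The class II transactivator Ciita read 7.72, 7.69 and 7.25 in LPS challenged and 9.13, 9.29 and 9.29 in naive spleens (-1.68 ± 0.15), and the peptide editors H2-Oa (-2.47) and H2-Ob (-2.36), known from B cells, fell further.

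**Figure D2:**
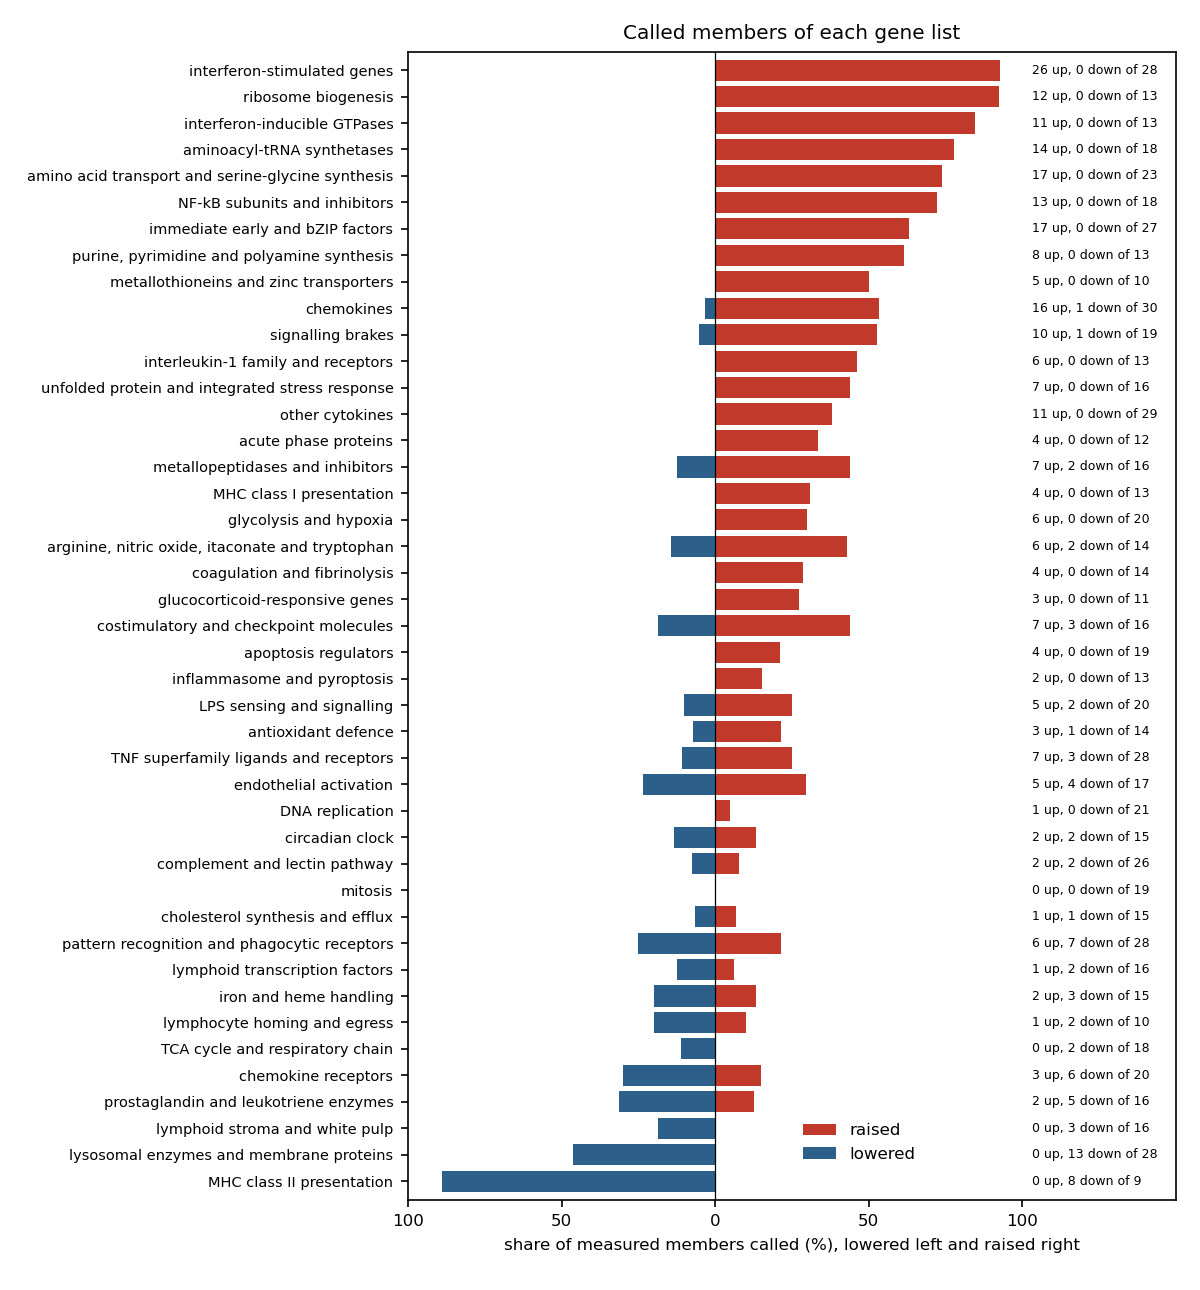
Share of the measured members of each gene list that were raised (right, red) or lowered (left, blue) in LPS challenged against naive WT spleen, in percent, with the counts at the right edge. Of 43 lists, interferon-stimulated genes (26 of 28 raised) and ribosome biogenesis (12 of 13) stand at the top and MHC class II presentation (8 of 9 lowered) at the bottom; the background over all genes was 4.05% raised and 4.94% lowered.

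Genes that build ribosomes and supply amino acids rose alongside the inflammatory genes. Ribosome biogenesis had 12 raised and 0 lowered of 13 measured (median 1.63). Polr1b, a subunit of the RNA polymerase that transcribes ribosomal RNA, read 7.94, 7.93 and 7.89 in LPS challenged and 5.89, 5.88 and 5.84 in naive spleens (2.05 ± 0.12, adjusted p = 8.13e-09), a spread of at most 0.05 within a group. The pre-ribosome assembly factor Rrp12 (2.16), the rRNA methyltransferase gene Nop2 (1.92), nucleolin Ncl (1.69), Gar1 (1.66) and Nop56 (1.64) rose likewise, and Npm1 had 0.98 and was not called. Myc, a known activator of these genes, read 10.64, 10.35 and 10.28 in LPS challenged and 7.83, 7.85 and 7.89 in naive spleens (2.57 ± 0.15). Genes of ribosomal proteins themselves, selected by the symbols Rpl and Rps after values were seen, had 3 raised and 0 lowered of 63 (median 0.04).

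The next 3 lists were drawn up after values had been seen, so their counts are a description only. Amino acid transport and serine-glycine synthesis had 17 raised and 0 lowered of 23 (median 1.62). The neutral amino acid carrier gene Slc1a4 read 8.20, 7.76 and 7.54 in LPS challenged and 4.92, 4.30 and 4.48 in naive spleens (3.27 ± 0.22), and the mitochondrial serine hydroxymethyltransferase gene Shmt2 11.26, 11.21 and 10.99 against 8.05, 8.18 and 8.05 (3.06 ± 0.14). Both groups were tight and far apart. Psat1, of serine synthesis, rose by 3.02, the large neutral carrier gene Slc7a5 by 3.01, cystathionase Cth by 2.93 and the arginine carrier gene Slc7a3 by 2.91. Aminoacyl-tRNA synthetases had 14 raised and 0 lowered of 18 (median 1.5), from Yars (2.12), Wars (1.97), Lars (1.96), Gars (1.88), Cars (1.84) and Tars (1.77) down to Qars, the one member with a negative value (-0.14, not called). Purine, pyrimidine and polyamine synthesis had 8 raised and 0 lowered of 13 (median 1.20), led by spermidine synthase Srm (2.30), CTP synthase Ctps (1.70) and Cad (1.59).

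Of the unfolded protein and integrated stress response 7 of 16 were raised and 0 lowered (median 0.29). Raised were Chac1 (3.19), Trib3 (2.44), Asns (2.10), Sesn2 (2.03), Atf4 (1.52), Ppp1r15a (1.39) and Ddit3 (1.06, and 0.938 without naive replicate 3, where its call was lost), that is ATF4 itself and genes known as its targets. Among the 9 members not called, the endoplasmic reticulum chaperone gene Hspa5 had 0.41, Calr -0.51, Sdf2l1 -0.71 and the transcription factor gene Xbp1 -0.33, examples chosen after their values were seen. Asns, which makes asparagine, read 7.98, 7.81 and 8.02 in LPS challenged and 6.31, 5.87 and 5.34 in naive spleens.

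Genes of cell division had few calls, as had all genes together (4.05% raised and 4.94% lowered). DNA replication had 1 raised gene of 21, the licensing factor Cdt1 (1.03), which lost its call without naive replicate 2, and a median of 0.32, while mitosis had 0 raised and 0 lowered of 19 and a median of -0.01. The largest value in the mitosis list was 0.38 for Nusap1, whose arrays overlapped between groups (6.00, 6.66 and 6.63 in LPS challenged, 6.48, 6.02 and 5.64 in naive spleens). Cdkn1a, the gene of the cell cycle inhibitor p21, read 9.52, 9.39 and 9.41 in LPS challenged and 6.53, 6.13 and 6.62 in naive spleens (3.01 ± 0.19).

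**Figure D3:**
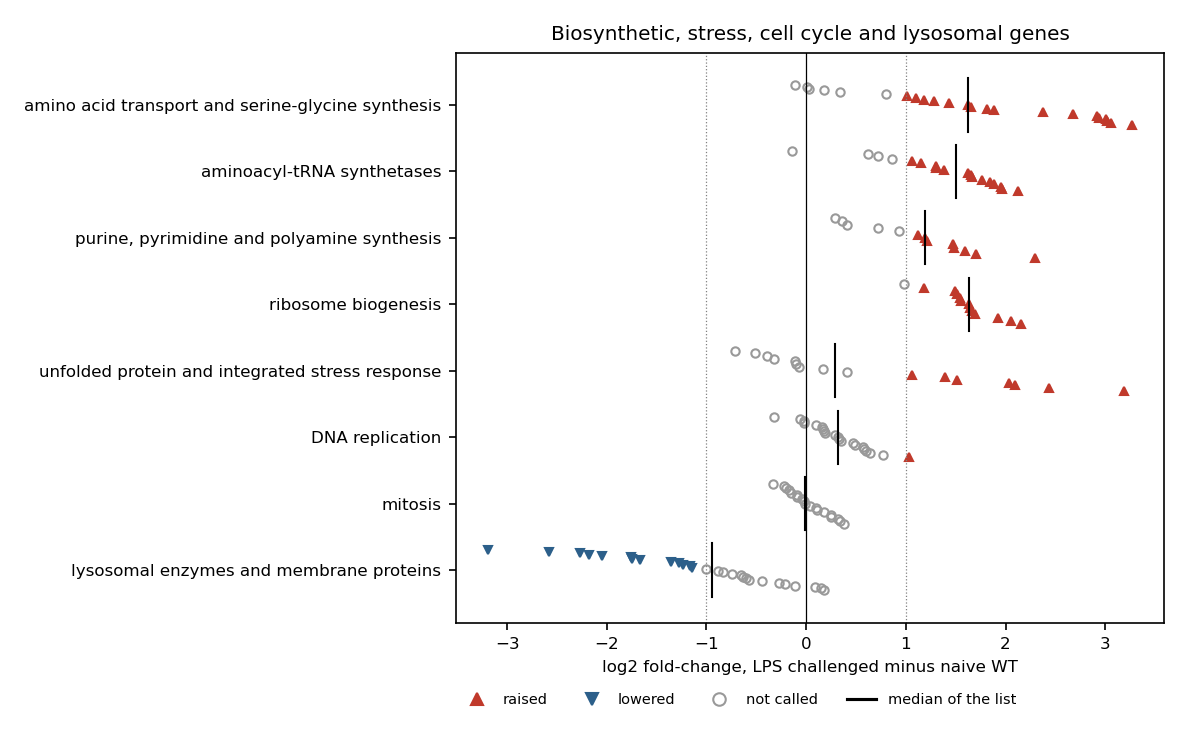
Log2 fold-change of each measured member (x axis, LPS challenged minus naive WT) in 8 lists, one row per list. Red triangles are raised, blue triangles lowered and open circles uncalled members, black bars are list medians, and dotted lines mark a 2-fold change. The 4 upper lists have medians of 1.62, 1.5, 1.20 and 1.63, mitosis of -0.01 and lysosomal genes of -0.94.

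Small nucleolar RNA genes had more raised than lowered members, though most were not called. Of 73 small nucleolar RNA genes (symbols Snora and Snord, chosen after values were seen) 20 were raised and 2 lowered (median 0.53). Snord52 read 5.88, 5.44 and 5.69 in LPS challenged and 3.07, 3.13 and 3.25 in naive spleens (2.52 ± 0.13), and Snora34 was lowered (-1.94). Most small nucleolar RNAs lie in introns, so an array signal can also come from the host transcript. Of 472 microRNA genes 8 were raised and 9 lowered (median 0.06). Both shares lay under those over all genes, 4.05% raised and 4.94% lowered. Of the 8 raised ones, 4 lie together on the plus strand of chromosome 14 as members of the polycistronic miR-17 cluster, which Myc is known to activate. These 4 are the members of the cluster that were measured with a symbol of their own. Their mature sequences are shown because they group by seed, the bases in capitals (bases 2 to 8), at chr14:115043684-115043706, chr14:115044183-115044205, chr14:115043867-115043889 and chr14:115044048-115044070 (RefSeq, GRCm38.p6).
miR-17-5p: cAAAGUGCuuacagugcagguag
miR-20a-5p: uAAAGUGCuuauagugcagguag
miR-18a-5p: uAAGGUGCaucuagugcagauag
miR-19a-3p: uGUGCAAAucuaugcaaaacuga
The first 2 share the seed AAAGUGC, miR-18a differs from them within the seed and miR-19a has another seed. Mir18 read 7.10, 7.10 and 6.74 in LPS challenged and 4.09, 4.11 and 4.16 in naive spleens (2.86 ± 0.16), Mir20a 4.66, 4.88 and 4.78 against 2.57, 2.89 and 2.85 (2.00 ± 0.19). Mir19a rose by 1.92 ± 0.15 and Mir17 by 1.21 ± 0.17, and in all 4 genes the groups were apart. All naive values of these 4 genes lay under the array medians. Mir19a read only 4.66, 4.27 and 4.65 after LPS challenge, close to the medians (4.17 to 4.27). The sizes of these rises are therefore uncertain. The probes read RNA over the hairpin region, and mature miRNAs were not measured separately.

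Among the falls, Slc40a1, the gene of the cellular iron exporter ferroportin, combined a large size with a small error. It read 5.27, 5.34 and 5.49 in LPS challenged and 10.57, 10.92 and 10.53 in naive spleens, a fold-change of 0.0253 (log2 fold-change -5.31 ± 0.13 SE, adjusted p = 1.75e-12). Hamp, the gene of hepcidin, the peptide that removes ferroportin from the membrane, read 6.32, 5.25 and 6.09 against 3.2, 2.35 and 2.81 (3.10 ± 0.30), so the transcripts of the exporter and of its ligand moved in opposite directions. Iron and heme handling as a list had 2 raised and 3 lowered of 15. Haptoglobin Hp rose (2.11), the hemoglobin scavenger receptor Cd163 (-1.5) and heme oxygenase Hmox1 (-1.13) fell, and ferritin heavy chain Fth1 had 0.55 and was not called. Metallothioneins and zinc transporters had 5 raised and 0 lowered of 10, with Mt2 at 12.23, 12.42 and 12.13 in LPS challenged and 8.95, 8.95 and 8.46 in naive spleens (3.47 ± 0.14), Mt1 at 2.57 and the zinc importer Slc39a14 at 1.98.

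Other large falls were Pgap1 (-4.09), which remodels GPI anchors, Abcg3 (-3.90), Tcf21 (-3.86), a transcription factor needed for spleen development in mice, the orphan receptor Gpr141b (-3.79), Sh2d1b1 (-3.52), an adaptor of NK cells, Cd7 (-3.44) of T and NK cells, the soluble guanylate cyclase subunit Gucy1a1 (-3.2), the lysosomal amidase Naaa (-3.19) and Klrd1 (-3.16). Pgap1 read 5.27, 5.12 and 5.17 in LPS challenged and 9.38, 9.50 and 8.94 in naive spleens, and Tcf21 read 5.02, 4.57 and 5.04 against 8.62, 8.71 and 8.87. These 9 genes had SEs of at most 0.20. That their groups did not overlap was a condition of being named.

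The promoters of Ccr3 and Pgap1 are shown as those of the largest falls with a match of GAGGAA, core letters bound by the myeloid and B cell factor PU.1. They come from chr9:124021721-124022020 (plus strand, Ccr3) and chr1:54557635-54557934 (minus strand, Pgap1) of GRCm38.p6 in RefSeq, with the match on either strand in capitals.
Ccr3: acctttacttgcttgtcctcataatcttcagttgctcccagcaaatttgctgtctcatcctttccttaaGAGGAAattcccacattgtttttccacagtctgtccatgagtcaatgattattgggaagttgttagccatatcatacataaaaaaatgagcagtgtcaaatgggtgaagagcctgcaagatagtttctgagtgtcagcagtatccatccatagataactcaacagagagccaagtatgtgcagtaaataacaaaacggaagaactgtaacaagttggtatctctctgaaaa
Pgap1: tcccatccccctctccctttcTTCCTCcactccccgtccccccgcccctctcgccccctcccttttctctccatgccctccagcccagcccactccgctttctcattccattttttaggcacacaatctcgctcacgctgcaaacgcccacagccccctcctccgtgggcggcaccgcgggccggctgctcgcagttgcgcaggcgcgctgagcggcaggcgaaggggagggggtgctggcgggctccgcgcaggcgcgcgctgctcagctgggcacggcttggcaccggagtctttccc
The match began at -181 in Ccr3, where it overlapped 1 kappaB match, and at -229 on the opposite strand in Pgap1. GAGGAA was found in 27.2% of all promoters, 27.1% of raised and 31.3% of lowered genes, and in 41.2% of the 114 promoters of genes that fell by more than 2. It was not particular to falls. Genes that rose by more than 3 held it in 30.2% of 53 promoters. Interferon-stimulated genes and GTPases held it in 42.3% of 26 promoters, and chemokines in 38.1% of 21. Of the 15 largest falls 10 had a promoter in the table, and 6 of them held these letters.

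Several of the largest falls belonged to non-coding or multi-copy genes, whose identity is less certain because near-identical copies can share probes. Mir101c read 2.32, 2.83 and 2.09 in LPS challenged and 8.43, 7.18 and 8.31 in naive spleens (-5.56 ± 0.37). The mature miR-101c of RefSeq lies at chr9:3038680-3038698 on the minus strand and is shown with its seed in capitals, since the row has the largest fitted fall of all genes.
miR-101c: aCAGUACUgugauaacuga
Gm26504, a small nucleolar RNA of the Snord116 family, read 3.22, 3.28 and 3.29 in LPS challenged and 8.71, 6.77 and 8.75 in naive spleens (-4.81 ± 0.51), and the vomeronasal receptor gene Vmn1r94 read 3.92, 3.35 and 3.62 against 6.69, 7.63 and 6.82 (-3.42 ± 0.44). Naive replicate 2 stood apart in these rows, lower than both other naive arrays for Mir101c and Gm26504 and higher for Vmn1r94 and Vmn1r129 (2.20, 2.35 and 2.76 against 5.20, 6.43 and 5.25). All 18 called vomeronasal receptor genes of 289 measured were lowered, and all 6 called olfactory receptor genes of 1105. These families were picked by symbol after values were seen, and most members were not called (medians -0.04 and -0.03). Over all genes 4.94% were lowered. What sets these signals was not tested.

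The lysosomal genes that were called were all lowered. Of 28 lysosomal enzymes and membrane proteins, a list drawn up after values had been seen, 0 were raised and 13 lowered (median -0.94). Naaa read 6.46, 6.64 and 6.47 in LPS challenged and 9.83, 9.55 and 9.76 in naive spleens (-3.19 ± 0.14), and the acid lipase Lipa 7.77, 7.84 and 8.13 against 10.60, 10.58 and 10.29 (-2.58 ± 0.13). In both the groups differed by at least 2 on the log2 scale between their nearest arrays. The ganglioside activator Gm2a (-2.27) fell as well, with Sgsh (-2.18), Siae (-2.04) and Hexa (-1.76), enzymes of glycan and glycolipid breakdown, and the sialidase Neu1 had 0.18 and was not called.

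Metabolic enzymes were raised in some routes and lowered in others, beside 4.05% raised and 4.94% lowered over all genes. The lists of the TCA cycle and of cholesterol had few calls, which give no direction for the route. Of 20 glycolysis and hypoxia genes 6 were raised and 0 lowered (median 0.55), namely hexokinases Hk2 (2.34) and Hk3 (1.11, and 0.93 without LPS replicate 1, where its call was lost), the phosphofructokinase genes Pfkfb3 (2.17) and Pfkp (1.79), the glucose transporter gene Slc2a6 (1.85) and Hif1a (1.38). In the TCA cycle and respiratory chain 0 were raised and 2 lowered of 18, both isocitrate dehydrogenases: Idh1, the cytosolic enzyme, read 4.89, 5.05 and 5.19 in LPS challenged and 7.62, 7.75 and 7.29 in naive spleens (-2.51 ± 0.14), and the mitochondrial Idh2 fell by 1.21. Inducible nitric oxide synthase Nos2 rose (3.04), whereas Kmo (-1.69) and Kynu (-1.67) of tryptophan breakdown fell. Prostaglandin and leukotriene enzymes had 2 raised and 5 lowered of 16. Ptgs2 and Ptges (1.33), which act in sequence to make PGE2, rose, while the prostaglandin-degrading Hpgd (-2.31) and the leukotriene genes Alox5ap (-2.24), Lta4h (-1.28) and Ltc4s (-1.17, and -0.987 without LPS replicate 1, where its call was lost) and thromboxane synthase Tbxas1 (-1.13) fell. Antioxidant defence had 3 raised and 1 lowered of 14. Superoxide dismutase Sod2 rose by 2.43 ± 0.12 and catalase Cat fell (-1.25 ± 0.26). In cholesterol synthesis and efflux 1 was raised, the oxysterol-making Ch25h (1.40), and 1 lowered of 15, Dhcr7 (-1.16), with 2 lowered without LPS replicate 2 or naive replicate 1. Glucocorticoid-responsive genes had 3 raised and 0 lowered of 11, among them Errfi1 (1.78), a receptor tyrosine kinase inhibitor.

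Pattern recognition and phagocytic receptors were divided, with 6 raised and 7 lowered of 28. The formyl peptide receptor gene Fpr2 (3.37) and the mycobacterial lectin receptor gene Clec4e (2.76) rose most, and Tlr11 (-2.61), Tlr8 (-2.12) and the mannose receptor gene Mrc1 (-2.0) fell most. Complement genes had 2 raised and 2 lowered of 26, factor B (Cfb, 2.23) and the anaphylatoxin receptor gene C5ar1 (1.08) against the decay-accelerating factor Cd55 (-2.85) and C6 (-1.57), and 4 were lowered without naive replicate 2. Of the 26, 10 lay under the array median on all WT arrays. Few calls are the rule over all genes too, with 4.05% raised and 4.94% lowered. Fcna, of the lectin pathway, read 8.12, 7.92 and 8.21 in LPS challenged and 8.79, 8.88 and 9.38 in naive WT spleens (-0.93 ± 0.19, adjusted p = 0.00163), apart between groups but short of the fold criterion. Costimulatory and checkpoint molecules had 7 raised and 3 lowered of 16, with PD-L1 (Cd274, 3.34) and the activation marker Cd69 (3.00) up and TIM-3 (Havcr2, -2.68), Cd200r1 (-1.15) and Icosl (-1.14) down.

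TNF superfamily genes had 7 raised and 3 lowered of 28 (median 0.51). The costimulatory receptor genes Tnfrsf9 (2.66) and Cd40 (2.20) and the death receptor gene Fas (2.00) rose most, and lymphotoxin Ltb (-1.73) and Cd40lg (-1.15) fell. Apoptosis regulators had 4 raised and 0 lowered of 19 (median 0.47), the survival genes Bcl2a1a (1.60), Cflar (1.13) and Bcl2l1 (1.08) together with the death-promoting Bcl2l11 (1.53). Bcl2a1a has near-identical copies that can share probes. Inflammasome genes had 2 raised and 0 lowered of 13, Casp4, the caspase that senses cytosolic LPS (2.21), and Nlrp3 (1.58), and 4 raised without naive replicate 2 or 1 lowered without naive replicate 1 or 3. Acute phase proteins had 4 raised and 0 lowered of 12, with the siderophore-binding Lcn2 (2.93) and Serpina3n (1.95) after Saa3.

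The circadian clock list had 2 raised and 2 lowered of 15. Ciart, a repressor of clock transcription, read 8.05, 7.57 and 7.37 in LPS challenged and 5.30, 5.30 and 5.16 in naive spleens (2.41 ± 0.21), and Dbp (-1.56) and Bhlhe41 (-1.52) fell. The hour of killing of either group was not given, and its part was not tested. Lymphocyte homing and egress had 1 raised and 2 lowered of 10. The gut homing integrin Itgb7 read 5.29, 5.19 and 5.45 in LPS challenged and 7.93, 7.84 and 7.91 in naive spleens (-2.58 ± 0.12), S1pr4 fell by 1.60, and the sphingosine kinase gene Sphk1 rose (1.71). Lymphoid transcription factors had 1 raised and 2 lowered of 16, with Ikzf3 at -1.58, but 0 raised without LPS replicate 1 and 1 lowered without LPS replicate 3 or naive replicate 2. Zinc finger genes with the symbol Zfp, picked after values were seen, had 2 raised and 22 lowered of 370 (median -0.15). Over all genes 4.05% were raised and 4.94% lowered.

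Vessel and matrix genes also went both ways. Among endothelial genes 5 were raised and 4 lowered of 17, and without naive replicate 2 the raised ones were 8. Endothelin Edn1 read 7.54, 7.14 and 7.45 in LPS challenged and 3.52, 4.30 and 3.75 in naive spleens (3.52 ± 0.19), and the adhesion molecules Icam1 (2.20), Selp (1.51) and Sele (1.5) rose. The sinusoidal scavenger receptor gene Stab2 (-2.31), Vcam1 (-1.52) and the growth factor receptors Kdr (-1.24) and Tek (-1.23, and -0.978 without naive replicate 2, where its call was lost) fell. Metallopeptidases and inhibitors had 7 raised and 2 lowered of 16: beside Mmp13 the inhibitor Timp1 (3.86), Adamts4 and stromelysin Mmp3 (2.45) rose, and Timp2 (-1.70) and Mmp2 (-1.12) fell. In coagulation 4 of 14 were raised and 0 lowered, led by the protein C receptor Procr (2.66) and thrombospondin Thbs1 (1.84). Of 16 stromal genes 0 were raised and 3 lowered (5 without naive replicate 1), and the homeobox gene Tlx1 read 5.49, 5.33 and 4.97 in LPS challenged and 7.26, 7.05 and 6.94 in naive spleens (-1.82 ± 0.16).

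Lists of resident lymphocytes and macrophages had mostly lowered members among their DEGs. B cell markers had 0 raised and 8 lowered of 14 (median -1.56), with Cd79a at 9.38, 9.67 and 9.50 in LPS challenged and 11.93, 11.82 and 12.18 in naive spleens (-2.46 ± 0.13) and Cr2, the complement receptor of follicular and marginal zone B cells, at -2.33. T cell markers had 0 raised and 7 lowered of 12 (median -1.04), led by Cd3g (-2.55), Cd5 (-1.45) and Cd4 (-1.33), while the signalling kinase Zap70 had 0.31 and was not called. Red pulp macrophage markers had 0 raised and 4 lowered of 9 (median -0.72), namely Cd5l (-2.17), Treml4 (-1.72), Csf1r (-1.70) and Itgad (-1.16). Spic, their lineage factor, did not follow, as it read 9.57, 9.36 and 9.37 in LPS challenged and 8.90, 8.93 and 8.82 in naive spleens (0.55, not called). Marginal zone macrophage markers had 1 raised, the scavenger receptor gene Marco (1.31), and 2 lowered of 6, with 1 lowered without LPS replicate 2 or 3 or naive replicate 2 or 3. Plasma cell markers had 1 raised (Prdm1, 1.20) and 3 lowered of 7, and dendritic cell markers 2 raised (Fscn1, 2.85, and Irf8, 1.26) and 3 lowered of 9, with Itgax at -1.92.

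**Figure D4:**
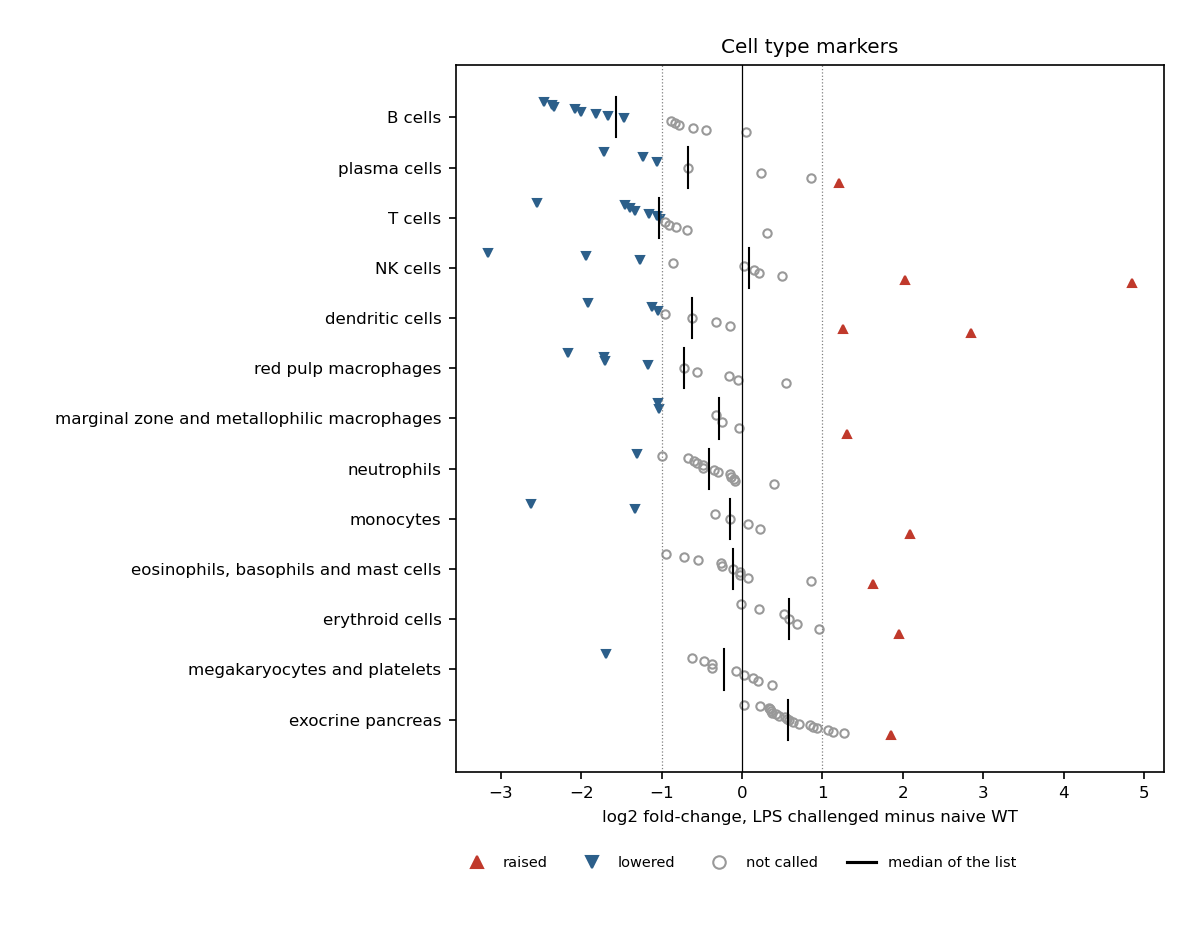
Log2 fold-change (x axis, LPS challenged minus naive WT spleen) of the measured markers of 13 cell types, one row per type, with raised (red), lowered (blue) and uncalled (open) markers, the median of each list as a black bar and a 2-fold change as dotted lines. B and T cell medians lie at -1.56 and -1.04, and NK cell markers spread from -3.16 to 4.85.

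NK cell markers had the widest range of the 13 cell types, with 2 raised and 3 lowered of 10 and a median of 0.09. Gzmb read 9.31, 9.45 and 8.95 in LPS challenged and 4.35, 4.57 and 4.25 in naive spleens (4.85 ± 0.16), and Tbx21, the T-bet gene, rose by 2.03. Klrd1, the CD94 receptor chain, read 4.92, 5.12 and 5.36 against 8.25, 8.36 and 8.26 (-3.16 ± 0.18), and the receptor genes Ncr1 (-1.94) and Klrb1c (-1.27) fell. Perforin Prf1 (0.14), Klrk1 (0.03) and Eomes (0.21) were not called. Over all 23 killer cell lectin-like receptor genes, a family picked by symbol after values were seen, 0 were raised and 9 lowered (median -0.72).

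Lists of other blood cells had few DEGs, but the lists were short, and over all genes only 4.05% were raised and 4.94% lowered. Neutrophil markers had 0 raised and 1 lowered of 14 (Prtn3, -1.30, not called without naive replicate 1, whereas 2 were lowered without LPS replicate 2 or naive replicate 3), although the neutrophil chemokine genes Cxcl1 (4.40), Cxcl2 and Cxcl5 were among the strongest rises. Of 7 monocyte markers Vcan was raised (2.08) and Cx3cr1 and Ccr2 were lowered. Eosinophil, basophil and mast cell markers had 1 raised of 11, the histidine decarboxylase gene Hdc (1.63; 2 raised without LPS replicate 3), and platelet markers 1 lowered of 10, the lectin receptor gene Clec1b (-1.69). Among 7 erythroid markers Rhag was called raised (1.95 ± 0.68, adjusted p = 0.0424), but it read 7.49, 8.49 and 8.77 in LPS challenged and 7.64, 6.40 and 4.85 in naive spleens, so the arrays overlapped, and the call was lost without LPS replicate 2 or 3 or naive replicate 2 or 3. Without naive replicate 1, 3 erythroid markers were raised. The mean of the erythroid markers spread over 6.47 to 8.27 on the naive arrays alone.

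Reg genes were 5 of the 10 DEGs with the largest SD among LPS challenged arrays. Of 7 Reg genes, which encode secreted lectins of pancreas and gut, 5 were raised and 0 lowered (a family picked by symbol after values were seen). Reg3b read 7.31, 7.63 and 9.67 in LPS challenged and 3.72, 3.64 and 4.11 in naive spleens (4.38 ± 0.62), and Reg2 6.51, 7.09 and 8.21 against 3.87, 3.13 and 4.21 (3.53 ± 0.51). LPS replicate 3 was the highest in each, as it was for Reg3a (7.39 against 5.66 and 5.51 on the other LPS arrays), Reg3d (7.78 against 5.42 and 6.34) and Reg3g (7.57 against 5.41 and 5.77). The mean of 20 exocrine pancreas genes read 8.29, 9.32 and 10.3 in LPS challenged and 7.72, 9.41 and 8.71 in naive spleens, and 1 of the 20 was raised and 0 lowered (median 0.57). That gene, Pla2g1b, had a log2 fold-change of 1.86 ± 0.57 and lost its call without LPS replicate 2 or 3 or naive replicate 1 or 3. The pancreas mean and the Reg values thus both peaked on LPS replicate 3, and the part of pancreatic RNA in the rise of the Reg genes was not tested beyond 1 fit. With the pancreas mean as a covariate, added after seeing the data, Reg2 rose by 3.18 ± 0.37 and Reg3b by 3.91 ± 0.40 (limma). The other 4 DEGs of widest spread were Ptgs2, the G protein regulator Rgs16 (2.13), the small nucleolar RNA gene Snord1b (2.17) and the heat shock gene Hspa1b. The last read 5.33, 3.65 and 5.28 in LPS challenged and 7.81, 5.35 and 5.71 in naive spleens (-1.54, adjusted p = 0.0464, limma) and lost its call without LPS replicate 2 (-0.985) or naive replicate 1 (-0.777), among other settings.

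**Figure D5:**
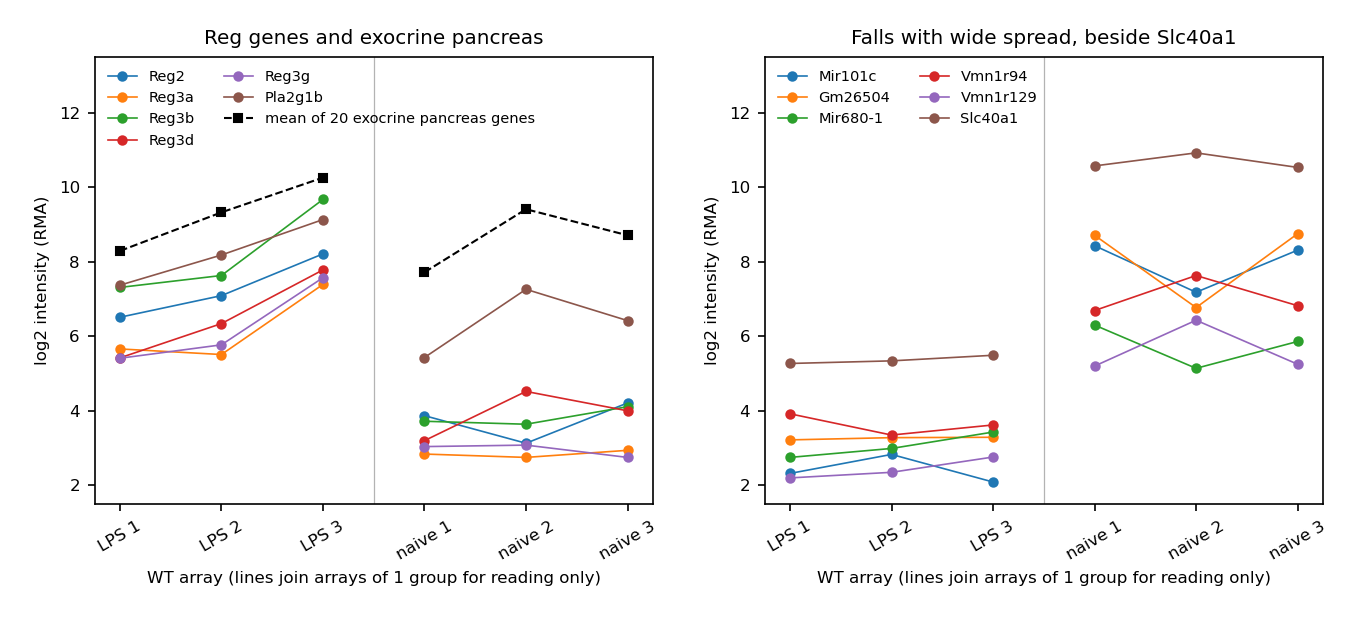
Log2 RMA intensity (y axis) on each of the 3 LPS challenged and 3 naive WT arrays (x axis) for Reg genes, Pla2g1b and the mean of 20 exocrine pancreas genes (left) and for falls with a wide spread beside Slc40a1 (right); lines join arrays of 1 group for reading only. The pancreas mean spans 8.29 to 10.3 after LPS challenge and 7.72 to 9.41 in naive mice, and naive replicate 2 stands apart for Mir101c and Gm26504 but not for Slc40a1.

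The response of WT spleen was also set against that of ficolin KO spleen by the test of the difference between both responses. At an adjusted p under 0.05, 2 of 22180 genes (0.00902%) differed, Reg2 and Coq4. At an unadjusted p under 0.05, 783 did, fewer than this threshold alone would give over 22180 genes if no gene differed. Neither call held in every setting: 0 genes differed over all probe sets (adjusted p = 0.110 for Reg2 and 0.0524 for Coq4, limma) and 0 with the pancreas mean as a covariate (0.421 and 0.141), and with trended and robust variances Reg2 lost its call (adjusted p = 0.985, limma). Of the 1994 WT DEGs 1988 had a log2 fold-change of the same sign in ficolin KO spleen and 6 of the opposite sign. In ficolin KO mice Reg2 read 2.99, 3.53 and 5.35 in LPS challenged and 6.88, 6.14 and 6.59 in naive spleens. Its log2 fold-change was -2.58 there and 3.53 in WT spleens, a difference of -6.11 ± 0.72 (adjusted p = 0.00657, limma). The mean of the exocrine pancreas genes read 4.16, 6.28 and 7.77 in LPS challenged and 9.91, 8.42 and 8.97 in naive ficolin KO spleens. In WT spleens it read 8.29, 9.32 and 10.3 in LPS challenged and 7.72, 9.41 and 8.71 in naive mice. Within groups it ranked the arrays as Reg2 did, except among the naive WT arrays. There it was highest on replicate 2, where Reg2 was lowest (3.13). The pancreas mean was lower on every LPS array than on the naive arrays in ficolin KO mice. In WT mice it overlapped between groups, whereas Reg2 did not. The part of the pancreas mean in the difference was not tested beyond the fit with the covariate. Coq4, of coenzyme Q synthesis, read 6.33, 6.19 and 6.24 in LPS challenged and 6.61, 6.81 and 6.63 in naive ficolin KO spleens. It was no DEG in WT spleen, where it read 7.61, 7.35 and 7.41 in LPS challenged and 6.62, 6.55 and 6.41 in naive mice (0.93 ± 0.12). Its log2 fold-change was -0.43 in ficolin KO spleen, and the difference was -1.36 ± 0.16 (adjusted p = 0.00657).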

How the data were processed

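Total RNA of mouse spleens was hybridised to Affymetrix Mouse Gene 2.0 ST arrays. The authors deposited log2 intensities of 41345 probe sets on 12 arrays, normalised between arrays by RMA with quantile normalisation, which forces a like distribution on every array, and not filtered as far as the sources used here say. The deposited values were used as given. Gene symbols came from the platform annotation: 23521 probe sets had 1 symbol, 1820 had several and 16004 had none, and 1082 genes had more than 1 probe set. All 12 arrays (4 groups of 3) were fitted with limma 3.58.1 in R 4.3.3 (a mean per group, moderated variances, Benjamini-Hochberg adjustment over 22180 genes), and genes past a fold-change of 2 at an adjusted p under 0.05 were called. The fit was tested on simulated data. SE is the moderated standard error with 8 residual degrees of freedom. The labels give replicates as separate samples, and the methods give 3 mice per group. Replicate numbers were not treated as pairs. The deviations of same-numbered LPS challenged and naive WT arrays correlated with r of -0.068, -0.118 and -0.063, so no shared effect was seen. These values cannot decide whether same-numbered samples were handled together, as differently numbered arrays were not compared.

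The comparison, the gene lists and the named genes were chosen with earlier results of these data known, and 4 lists and all families by symbol after the values were seen. Named were the 15 largest rises and falls among called genes with groups apart and a mean above every array median; up to 6 members per list by size plus members called against the rest; genes whose responses differed; genes under the array median in naive and highest in LPS challenged spleens; the 10 called genes with the largest SD after LPS challenge; and genes with a printed promoter. Other members named, mostly not called, were chosen after their values were seen. Several listed genes were not measured with a symbol of their own. Promoters and mature miRNAs came from RefSeq tables of GRCm38.p6, matched by Entrez gene identifier. Alternatives covered scaling, dim genes, choice of probe set, variance model, criteria, single arrays and the replicate number as a block.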

Additional observations from a re-analysis of the deposited data

Results flagged for a closer look

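Reg2 and Coq4 stand out because their responses to LPS differed between ficolin KO and WT spleens in the test of the difference itself (limma, all genes). The difference was -6.11 on the log2 scale for Reg2 and -1.36 for Coq4. For Reg2 all 3 LPS challenged arrays lay below the naive arrays in ficolin KO mice and all 3 above them in WT mice, and the same held for Coq4. In ficolin KO mice the mean of 20 exocrine pancreas genes was 4.16 to 7.77 after LPS challenge and 8.42 to 9.91 without it. In WT mice it was 8.29 to 10.3 after LPS challenge and 7.72 to 9.41 without it. Within groups that mean ranked the arrays as Reg2 did, except among the naive WT arrays, where it was highest on replicate 2 and Reg2 lowest. With that mean as a covariate the differences were -4.18 (adjusted p = 0.421, limma) for Reg2 and -1.56 (adjusted p = 0.141, limma) for Coq4.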

How the results depend on the processing

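Raised and lowered genes numbered 2977 and 3693 with no fold criterion, 1887 and 2531 at a fold-change over 1.5, 428 and 331 when the fold itself was tested (treat), and 1313 and 1939 over all probe sets. Leaving out single arrays gave 847 to 947 raised and 1024 to 1158 lowered genes, and 1586 of the 1994 DEGs (79.5%) kept their call without each array in turn. None of the 30 largest changes lost its call in any of the 26 alternatives that tested it. They had been picked for size and for groups apart, so this was likely from the start. Subtracting array medians gave 956 raised and 1008 lowered genes with a median of all genes of 0.05, and quantile normalisation repeated over genes 939 and 1052. With the replicate number as a block, although same-numbered arrays showed no shared effect, 897 genes were raised and 1095 lowered. Of these 896 and 1094 were shared with the fit without the block, and 2 genes differed in response. The number of genes whose response differed was 0 over all probe sets (1540 of 41345 at an unadjusted p under 0.05, limma), 0 when the mean of the pancreas genes was fitted as a covariate, a choice made after seeing the data (954 unadjusted), 1 with trended and robust variances, and 2 to 3 without single arrays. The cause of these shifts was not tested. Both unadjusted counts were below what that threshold alone would give if no gene differed. Of 512 called genes followed one by one, 226 lost the call in at least 1 alternative. A gene left out as dim was not counted as having lost its call there. Genes near the fold criterion and genes near the array medians, where signal over background is low, are the least certain.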
